A study of Mus musculus with 4 samples.

Results

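Collagen chain genes, the 44 mouse protein-coding genes with a symbol made of Col, a number, a and a number (Col1a1 to Col28a1), were examined for RUNX1 binding in the fetal ovary. They were taken from the 21000 protein-coding genes with curated RefSeq transcripts on mm10. Of the 10490 RUNX1 peaks on chromosomes 1 to 19 and X, 20 had a collagen chain gene as the gene with the nearest transcription start site (TSS), and these 20 peaks belonged to 17 of the 44 genes. The other 27 genes, among them Col8a1, were nearest to no peak.

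RUNX1 binding had been measured by ChIP-seq, which recovers DNA fragments bound by a protein with an antibody and sequences them. The material was ovaries of CD1 mouse embryos at E14.5, with no mutation or treatment named, in 2 RUNX1 ChIP samples and 2 input samples. Each ChIP used 80 to 100 pooled ovaries by the labels, 20 to 30 μg of chromatin and 10 μl of RUNX1 antibody. The reads of the 2 ChIP samples were merged before peaks were called, so each peak has 1 fold enrichment and 1 p-value of the peak caller, with no replicate spread, and no difference below was tested. Read depth is not part of the peak list. The ovary holds pre-granulosa, germ and other cells, the binding values are those of the whole organ, and the list holds no expression by which its cell types could be checked.

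Collagens are the main structural proteins of the extracellular matrix. Their chains wind around each other into a helix inside the cell, are modified and secreted, and then assemble into fibrils, into the sheet-like network of basement membranes, or into beaded filaments and smaller networks. RUNX1 is a DNA-binding transcription factor of the Runt family that is made in pre-granulosa cells and recognises a short core sequence, searched here as TGTGGT or TGCGGT on either strand (ACCACA or ACCGCA where the match is on the minus strand).

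The 4 peaks below are printed in full because they held more than 1 such core, and each had a fold enrichment of at least 8. They are the mm10 plus strand from the RefSeq assembly, 5′ to 3′, with RUNX cores in capitals. The Col6a2 peak at chr10:76669012-76669311 lies between Col6a1 and Col6a2 and had the highest fold of the 20. The Col3a1 peak at chr1:45313910-45314209 lies in intron 1, the Col8a2 peak at chr4:126300867-126301166 in intron 2 and the Col6a6 peak at chr9:105784779-105785078 in intron 3.
Col6a2: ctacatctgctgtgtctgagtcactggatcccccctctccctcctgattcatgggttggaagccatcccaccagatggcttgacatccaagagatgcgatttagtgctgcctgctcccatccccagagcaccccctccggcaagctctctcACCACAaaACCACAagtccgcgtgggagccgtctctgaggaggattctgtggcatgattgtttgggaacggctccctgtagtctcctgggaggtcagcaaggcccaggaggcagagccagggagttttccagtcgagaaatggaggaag
Col3a1: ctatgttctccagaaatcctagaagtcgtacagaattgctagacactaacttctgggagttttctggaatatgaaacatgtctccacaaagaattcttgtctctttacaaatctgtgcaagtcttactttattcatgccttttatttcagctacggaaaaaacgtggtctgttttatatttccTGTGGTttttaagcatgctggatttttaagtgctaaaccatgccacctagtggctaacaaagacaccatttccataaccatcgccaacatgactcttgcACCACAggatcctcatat
Col8a2: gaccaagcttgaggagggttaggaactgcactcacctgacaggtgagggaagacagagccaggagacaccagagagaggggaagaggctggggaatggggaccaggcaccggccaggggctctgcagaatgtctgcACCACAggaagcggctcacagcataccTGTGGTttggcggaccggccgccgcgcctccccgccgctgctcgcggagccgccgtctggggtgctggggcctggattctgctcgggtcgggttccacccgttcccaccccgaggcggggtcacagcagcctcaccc
Col6a6: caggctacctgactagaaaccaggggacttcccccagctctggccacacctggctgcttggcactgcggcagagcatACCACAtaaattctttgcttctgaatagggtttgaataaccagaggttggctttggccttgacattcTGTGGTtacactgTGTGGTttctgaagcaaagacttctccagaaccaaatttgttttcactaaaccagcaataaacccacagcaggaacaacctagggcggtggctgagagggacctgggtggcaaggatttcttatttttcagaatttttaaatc

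The other 5 peaks with a core held 1 each, and 30 bases around it are given to show its form and neighbours. The peak shared by Col4a1 and Col4a2 has its core at chr8:11312726-11312731, in the transcribed start of Col4a1. The second Col4a1 peak has it at chr8:11313474-11313479, upstream of Col4a1 and within the body of Col4a2. The Col6a4 peak has it at chr9:106080350-106080355 in exon 3, the Col9a2 peak at chr4:121041165-121041170 in intron 2 and the Col26a1 peak at chr5:136882306-136882311 in intron 1.
Col4a1 and Col4a2: caccgtcccgggTGCGGTgactctgcgcag
Col4a1: tcatggaccgagTGCGGTtcaaagcgtctg
Col6a4: acacatcgccttTGCGGTgataaactgaaa
Col9a2: gtgcctgcagagACCACAaggagtctgttt
Col26a1: cctcttagtctcTGTGGTgcgtccccaaac

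The share of collagen chain genes with a peak was close to that of other genes when a peak was given to its nearest TSS, and smaller for binding close to the start. The TSS of 17 of the 44 members (38.6%) was the nearest to a peak, beside 39.1% of all protein-coding genes, so that the count by itself sets the collagen genes apart from no other genes. A peak lay within 1 kb of a TSS of 10 members (22.7%), beside 37.4% of all protein-coding genes. Within 10 kb the count was 13 (29.5% beside 43.9%) and within 50 kb it was 24 (54.5% beside 62.8%). A peak midpoint lay inside 14 of the genes (31.8% beside 30.5%). On each of the 3 distances the share of collagen genes was thus below that of all genes, and for binding within the gene it was close to it.

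Gene length differs between these sets and moves with the count. The median length was 114378 bp for the collagen chain genes, from 7105 bp for Col10a1 to 419039 bp for Col25a1, and 16724 bp for all protein-coding genes. Of the 22 members at least as long as their median, 10 (45.5%) were nearest to a peak, beside 56.8% of the 1925 protein-coding genes of at least that length. Of the 22 shorter members it was 7 (31.8%), beside 37.3% of the 19075 protein-coding genes under that length. In both classes the collagen share was below that of the other genes, but the shorter class spans all lengths under the collagen median and so does not match the genes closely in length.

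**Figure D1:**
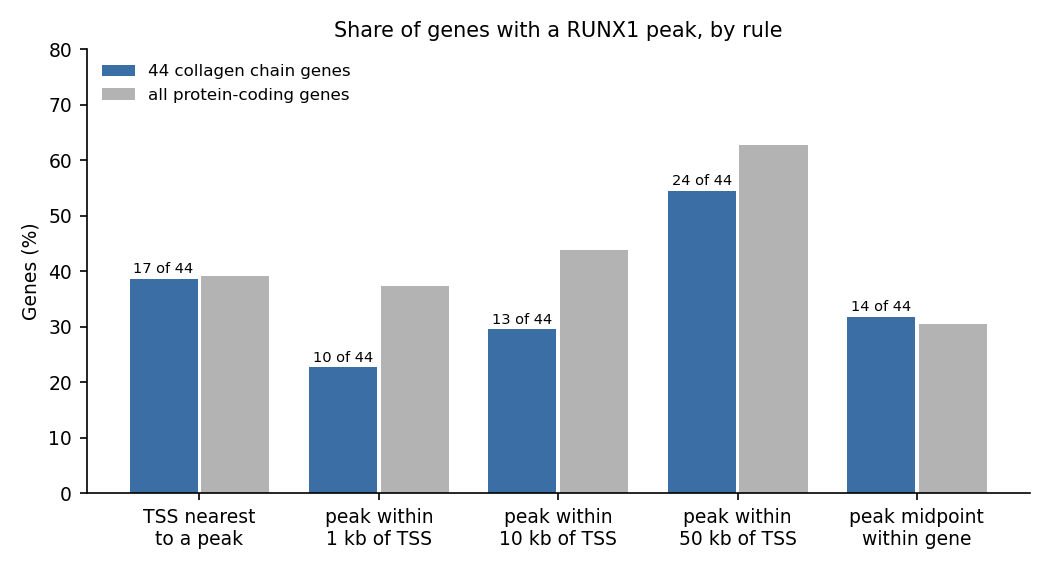
Percent of genes with a RUNX1 peak by 5 rules (x axis), for the 44 collagen chain genes (blue, with counts) and all 21000 protein-coding genes (grey); the y axis is percent of genes and there are no error bars because there is 1 merged peak list. The blue bar is lowest against the grey one for a peak within 1 kb of a TSS, 22.7% beside 37.4%.

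The share of peaks near a gene start was smaller for collagen peaks than for RUNX1 peaks as a whole. Of the 20 collagen peaks, 10 (50%) had an edge within 1 kb of a TSS of their gene, beside 76.0% of all peaks. Of the 20, 3 (15% beside 34.2%) lay over a TSS, and 7 (35.0% beside 15.9%) lay over 10 kb away. By the place of the peak midpoint, 10 (50% beside 23.9%) were in introns, 3 (15% beside 31.1%) in exons and 4 (20.0% beside 32.4%) in promoters, meaning the 1 kb upstream of a TSS. Transcripts of any curated gene counted, with promoter placed before exon and exon before intron. The peak shared by Col4a1 and Col4a2 and the Col6a2 peak over a start thus count as promoter, though their midpoints also lie in exon 1 of a transcript. The intron count includes the Col14a1 peak, which lies in Deptor.

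The folds of the collagen peaks were near those of all peaks, with a somewhat lower median. The authors filtered peaks for a fold of 4 over input and local signal, and the lowest over all peaks was 4.01. The median fold of the collagen peaks was 5.86, from 4.20 to 66.95, beside a median of 6.41 over all peaks. Of the 20, 5 (25% beside 32.1%) reached a fold of 8. Of those 5, the peaks of Col6a2, Col3a1, Col8a2 and Col6a6 lay over 1 kb from the TSS, and the Col27a1 peak lay over it. Among all peaks of such a fold, 76.0% lay within 1 kb. Of the 17 genes with a peak, 4 (23.5% beside 15.7% of all protein-coding genes with a peak) had more than 1, namely Col4a1, Col4a2, Col6a2 and Col26a1.

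**Figure D2:**
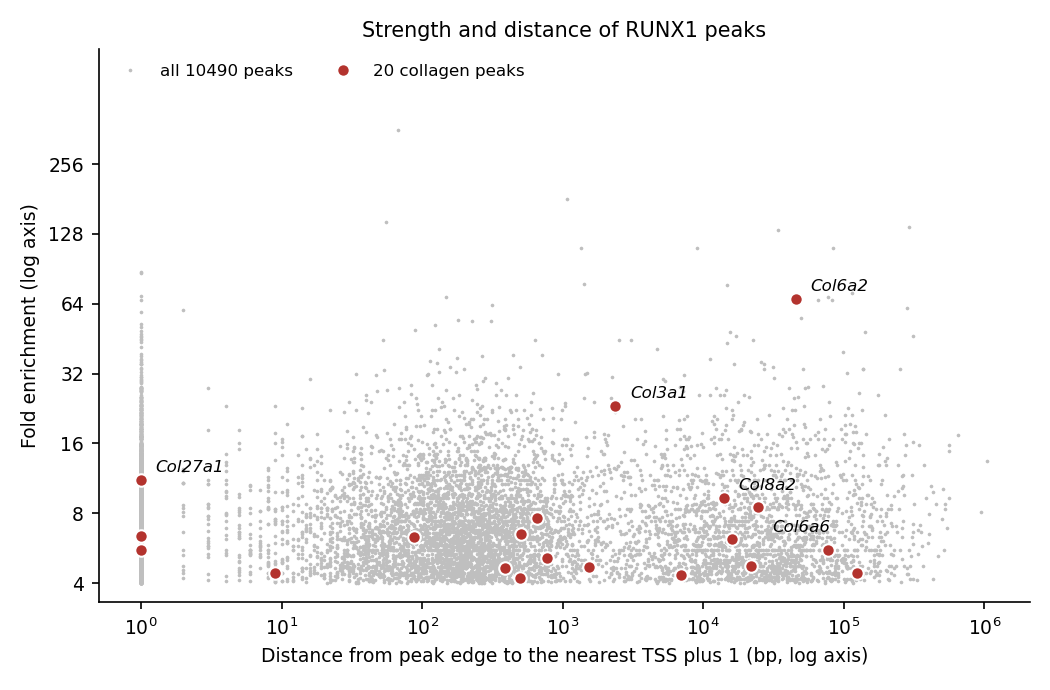
Fold enrichment (y, log axis) against the distance in bp from peak edge to the nearest TSS, plus 1 (x, log axis), for all 10490 peaks (grey) and the 20 collagen peaks (red), with peaks over a TSS at 1. The 5 named peaks have a fold of at least 8, and all but that of Col27a1 lie over 1 kb from the TSS.

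**Figure D3:**
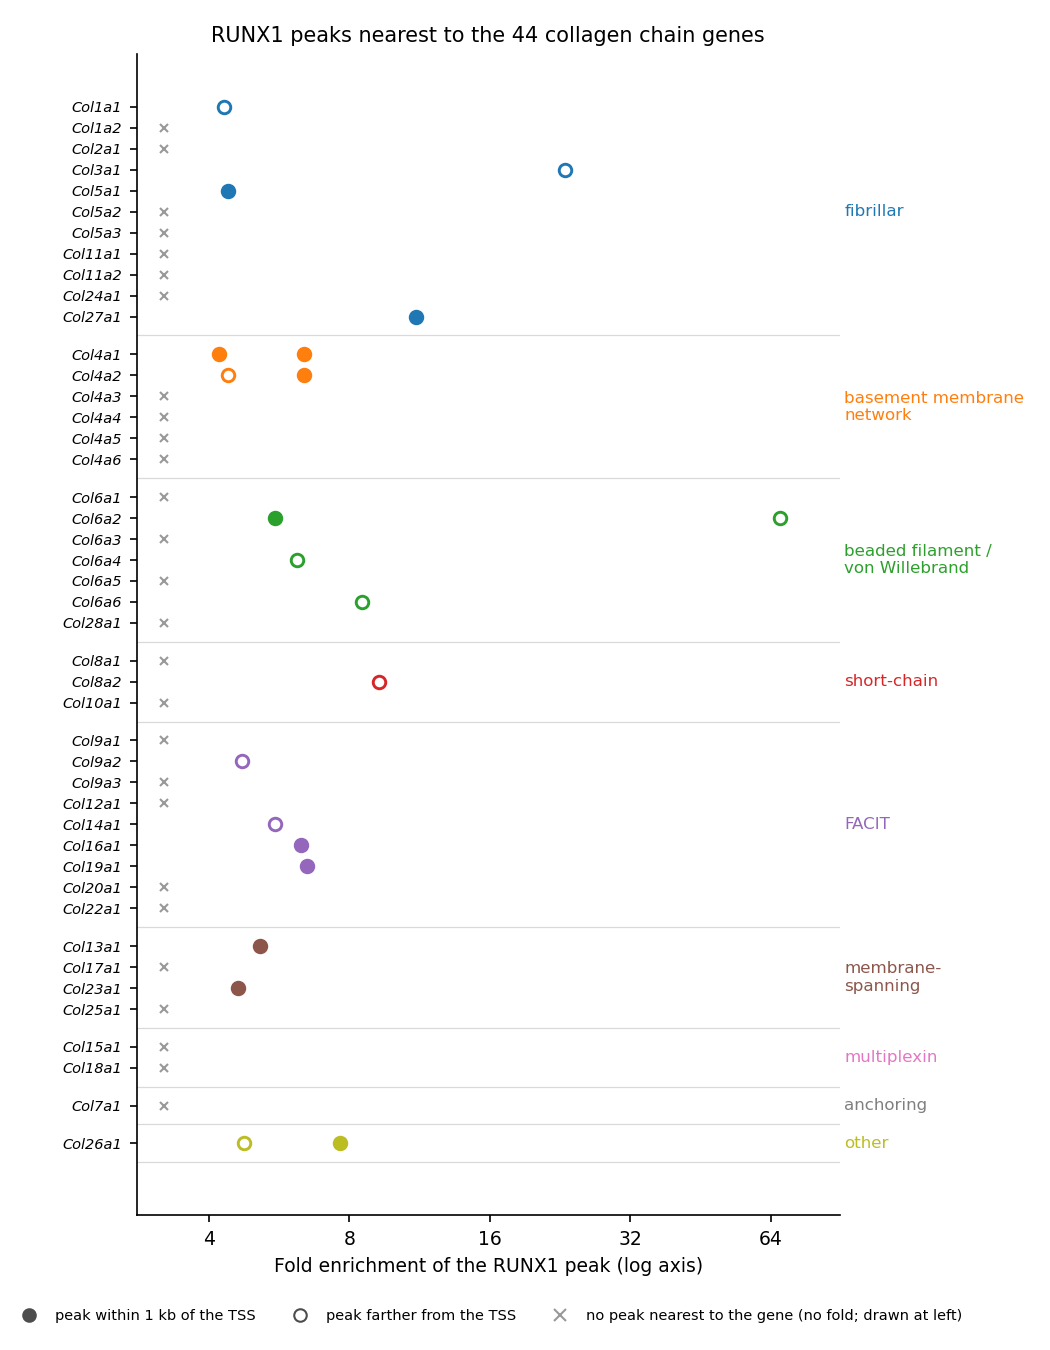
Fold enrichment (x, log axis) of each peak nearest to each of the 44 collagen chain genes (y), grouped by family, with filled points for peaks within 1 kb of a TSS, open points for peaks farther away and crosses for the 27 genes without one. The peak shared by Col4a1 and Col4a2 is drawn for both genes, and the points of Col6a2 at 66.95 and Col3a1 at 23.14 stand apart from the rest.

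Fibrillar collagens form the rope-like fibrils that give tissue its tensile strength, and 4 of their 11 chain genes had a peak. This and the counts of the other families stand beside 39.1% of all protein-coding genes nearest to a peak. No family has more than 11 genes, so the counts by family are a description and set no family apart. Col3a1, the chain of type III collagen, common in distensible organs, had the strongest peak of the family and the next in fold after Col6a2 among the 20. Its fold was 23.14 and its p-value 1.58e-25, rank 204 of 10490 by fold and 2328 by p-value, so that the 2 measures place it differently. The peak began 2372 bp downstream of the TSS in intron 1 of 51 exons and had a GC content of 38.7%, the lowest of the 20. Col27a1, a fibrillar chain known from developing cartilage, had a peak over its TSS at chr4:63215288-63215587 with a fold of 11.11 and a p-value of 2.44e-21. This was the only collagen peak of fold at least 8 at a gene start, and it held no RUNX core.

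Col5a1, a chain of type V collagen that helps to start fibrils, had a peak 8 bp downstream of its TSS in exon 1, at chr2:27886433-27886732, with a fold of 4.40. Col1a1, the main chain of type I collagen, had a peak 7003 bp upstream at chr11:94928922-94929221 with a fold of 4.32. Both were among the lowest of the list by fold, at rank 9380 and rank 9572. By p-value the Col5a1 peak stood at rank 6683 and the Col1a1 peak at rank 9962, so that only the latter was low by both measures. The peak assigned to Col1a1 lay nearer, at 5395 bp, to the start of a predicted RefSeq transcript, which the curated set leaves out.

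The remaining 7 fibrillar genes had none. For Col1a2, the partner chain of Col1a1 in type I collagen, the closest peak lay 95325 bp from the TSS, and for Col5a2 it was the Col3a1 peak itself, 189073 bp away. Col3a1 and Col5a2 are neighbours that point towards each other, with 24624 bp between their ends. The closest peak lay 15844 bp from Col5a3, 38626 bp from Col11a2, 40312 bp from Col2a1, 173683 bp from Col24a1 and 400390 bp from Col11a1. None of these chains thus had RUNX1 binding at its start in this list.

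Type IV collagen is the network-forming collagen of basement membranes, and its 6 genes lie as 3 head-to-head couples. Col4a1 and Col4a2, the chains present in nearly all basement membranes, start 21 bp apart in opposite directions on chromosome 8, and 1 peak at chr8:11312625-11312924 lay over both TSSs. Its fold was 6.40 and its p-value 1.52e-18. It held a TGCGGT core 45 bp from the midpoint, 2 GC boxes (GGGCGG) and 1 CCAAT box, 1 bp from the midpoint. A second peak at chr8:11313325-11313624, with a fold of 4.20, lay 499 bp upstream of the Col4a1 TSS and within the body of Col4a2, with a TGCGGT core 3 bp from its midpoint. A further peak at chr8:11187958-11188257, with a fold of 4.40, lay beyond the far end of Col4a1 at 124548 bp from the Col4a2 TSS and 124569 bp from that of Col4a1. It was assigned to Col4a2 by that small margin only, and the start of a predicted transcript lay 229 bp from it.

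The other 2 couples, whose chains have a more restricted distribution, showed no such binding. The starts of Col4a3 and Col4a4 are 72 bp apart and those of Col4a5 and Col4a6 are 1343 bp apart. The closest peak lay 252320 bp from the start of Col4a3, 252392 bp from Col4a4, 873934 bp from Col4a6 and 875277 bp from Col4a5, the farthest of all members. Of the 3 couples, binding at the shared start was thus listed for 1, where 37.4% of all protein-coding genes had a peak within 1 kb.

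Laminins and nidogens, which build the same basement membranes, had a peak as nearest gene for 2 of 13 genes (15.4%), both within 1 kb of a TSS. These were Lamc1 with a fold of 8.33 and Lama3 with 4.32. The share was below the 39.1% of all protein-coding genes, on a list of few genes.

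Type VI collagen forms beaded filaments around cells, and together with Col28a1 it makes up a group of chains with von Willebrand domains. Of these, 3 of 7 had a peak, beside 39.1% of all protein-coding genes. Col6a2 had the strongest collagen peak by far. Its fold was 66.95 and its p-value 1.2e-305, rank 17 by fold and rank 8 by p-value of 10490 peaks. The peak lay 45382 bp upstream of the Col6a2 TSS in the 85161 bp between Col6a1 and Col6a2, which are transcribed in the same direction, and the start of Col6a1 lay 56733 bp away on the other side of the Col6a1 gene body. No curated gene spans it, and the nearest predicted transcript starts 8411 bp from it, so that with predicted transcripts counted this peak is no longer nearest to a collagen gene. A second Col6a2 peak at chr10:76623309-76623608 lay over one of the 2 starts of the gene, with a fold of 5.55, 3 GC boxes and no RUNX core. Binding between the genes was thus far stronger in fold than at the start.

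**Figure D4:**
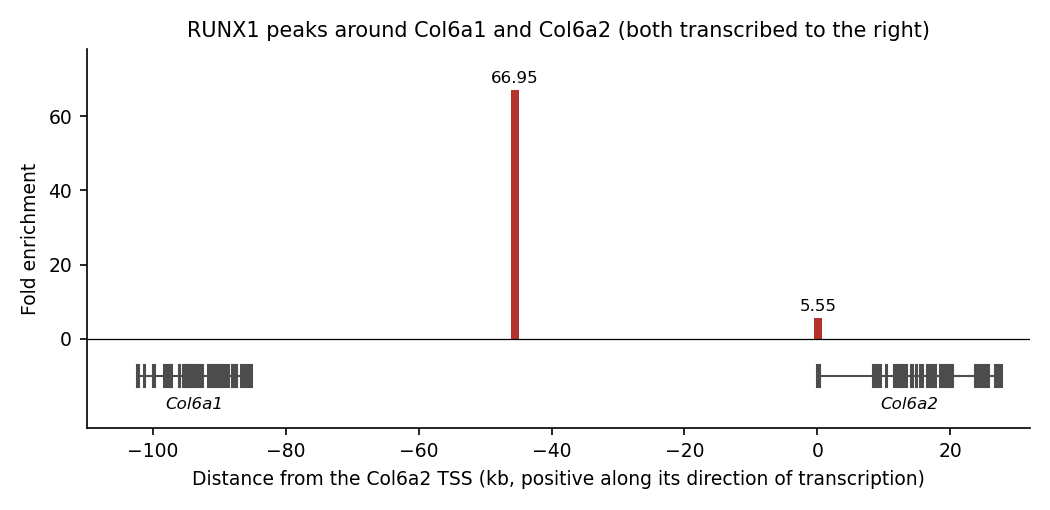
RUNX1 peaks (red bars, drawn wider than their 300 bp) by fold enrichment (y) and distance from the upstream Col6a2 TSS in kb along the direction of transcription (x), with the exons of Col6a1 and Col6a2 as boxes below. The peak of fold 66.95 stands between the genes and that of fold 5.55 at the start of Col6a2, and no peak stands at Col6a1.

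In the distal Col6a2 peak both cores lay close to the middle, 5 and 13 bp from the midpoint, on the minus strand and with the same TGTGGT letters, 2 bases apart as printed above. The peak also held 1 match to the CTCF site, 76 bp to the left of the midpoint. Col6a6 and Col6a4 lie with Col6a5 in a run of 3 type VI genes on chromosome 9 that are transcribed the same way. The Col6a6 peak, 24570 bp downstream of the nearer of the 2 curated starts of this gene, had a fold of 8.52 and a p-value of 2.46e-14. It held 3 TGTGGT cores. The cores lay 69 and 2 bp to the left and 11 bp to the right of the midpoint, and 1 NR5A site (CAAGGCCA) lay 15 bp to the left.

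The Col6a4 peak at chr9:106080300-106080599 lay 16092 bp downstream of the start, in exon 3, and its fold was 6.17. Within it stood a TGCGGT core 96 bp from the midpoint whose last base is shared with a GATA match (TGATAA), and a second such match 140 bp from the midpoint. Col6a5, between these genes, was nearest to none, its closest peak being that of Col6a4 at 119657 bp. Col6a1 and Col6a3, the partners of Col6a2 in the common form of type VI collagen, had their closest peaks at 56733 and 129163 bp, and Col28a1 at 16629 bp.

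Among the short-chain collagens, which form hexagonal lattices such as that of the cornea, 1 of 3 genes had a peak (39.1% of all protein-coding genes). Col8a2 had a peak 14073 bp downstream of its curated TSS in intron 2, with a fold of 9.26 and a p-value of 5.81e-28. It held 2 TGTGGT cores, 1 on the minus strand 10 bp to the left of the midpoint and 1 on the plus strand 17 bp to the right. A predicted Col8a2 transcript starts 995 bp from the peak, so that its distance depends on the transcripts counted. Col8a1, which encodes the partner chain of type VIII collagen, had its closest peak 587320 bp from its TSS, one nearest to another gene. For Col10a1, the collagen of hypertrophic cartilage, the closest peak lay 28242 bp away.

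FACIT collagens sit on the surface of fibrils, and 4 of their 9 genes had a peak, beside 39.1% of all protein-coding genes. Col19a1 had one in intron 1, 504 bp downstream of its TSS, at chr1:24586634-24586933 with a fold of 6.48 and a p-value of 3.21e-14. Col16a1 had one 86 bp upstream of its TSS at chr4:130047455-130047754 with a fold of 6.29. Col9a2, a chain of cartilage collagen IX, had one 1529 bp downstream of its TSS at chr4:121041095-121041394 with a fold of 4.71 and 1 TGTGGT core. All 3 lay within 2 kb of a start and none reached a fold of 8.

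The fourth, Col14a1, was given a peak 76877 bp upstream of its TSS at chr15:55230575-55230874, with a fold of 5.55. The midpoint of this peak lies in an intron of the neighbouring gene Deptor, whose TSS is 97139 bp away, so that its link to Col14a1 is one of distance alone. Col9a1 and Col9a3, the partner chains of Col9a2, had their closest peaks at 77391 and 15122 bp, the latter the shortest such distance among the 27 genes. For Col20a1, Col12a1 and Col22a1 it was 18970, 74759 and 534328 bp.

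Of the membrane-spanning collagens, 2 of 4 had a peak (beside 39.1% of all protein-coding genes), both near the start and both in intron 1. Col13a1, found at sites where cells attach, had one 774 bp downstream of its TSS at chr10:61978035-61978334 with a fold of 5.14. Col23a1 had one 387 bp downstream at chr11:51290307-51290606 with a fold of 4.63. A further peak of fold 4.17, at chr11:51470401-51470700, lay within Col23a1 but 180481 bp from its TSS, and by the nearest TSS it belonged to Phykpl at 114081 bp. Col17a1, of hemidesmosomes, and Col25a1 had their closest peaks at 39079 and 119976 bp.

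Col26a1, a collagen known from testis and ovary, had a peak 654 bp downstream of its TSS in intron 1 at chr5:136882262-136882561. Its fold was 7.64 and its p-value 1.66e-18. A second peak at chr5:136861128-136861427 lay in the same intron at 21788 bp downstream of the start and had a fold of 4.76. The peak near the start held 1 TGTGGT core, 102 bp from its midpoint, and the farther one none.

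The multiplexins Col15a1 and Col18a1, which carry the endostatin-type fragments of basement membrane zones, and Col7a1, the anchoring fibril collagen of skin, had no peak. Their closest peaks lay 144793, 80426 and 128502 bp from the TSS. Over the 27 members without a peak, the distance from TSS to the closest peak ranged from 15122 to 875277 bp with a median of 119657 bp. It was under 10 kb for 0 of them, under 50 kb for 8 and over 100 kb for 14, so that no call of absence in the list turned on a peak at the start being given to a neighbouring gene.

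The share of collagen peaks with a RUNX core was close to that of all peaks, and the peaks with more than 1 core were all of high fold. At least 1 core was held by 9 of the 20 peaks (45.0%), beside 39.9% of all 10490 peaks of the same 300 bp. The TGTGGT form was in 6 (30.0% beside 19.5%) and the TGCGGT form in 3 (15% beside 23.7%). The share differed with distance in both sets. It was 3 of 10 collagen peaks within 1 kb (30.0% beside 34.2%) and 6 of 10 beyond it (60% beside 57.8%).

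More than 1 core was found in 4 of the 20 peaks (20.0% beside 8.26%), those of Col6a2, Col3a1, Col8a2 and Col6a6, which were all the collagen peaks of fold at least 8 outside 1 kb. Over all peaks beyond 1 kb with such a fold, 70.4% held a core and 22.5% held more than 1. Of the 15 collagen peaks of lower fold, 5 held a core (33.3% beside 35.0%) and 0 held more than 1 (beside 6.56%). The 9 peaks held 14 cores in all, 11 TGTGGT and 3 TGCGGT, of which 9 lay within 50 bp of the midpoint. No share over all peaks is given for this distance, so the count does not show whether cores lay nearer the middle than elsewhere. A match shows only that these letters stand in the window, and with 4 peaks the shares are a description.

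**Figure D5:**
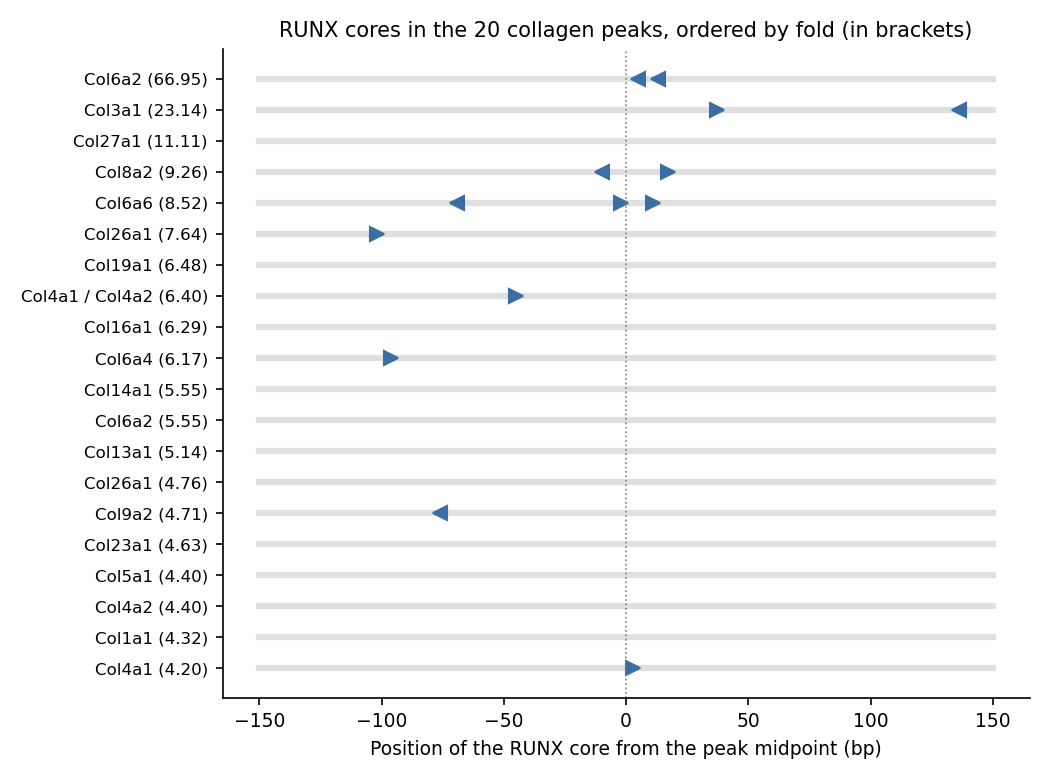
Position of each RUNX core from the peak midpoint in bp (x) in the 20 collagen peaks (y, ordered by fold, given in brackets), with grey lines for the 300 bp searched and triangles pointing right for TGTGGT or TGCGGT on the plus strand and left for the minus strand. Of the 5 uppermost peaks, 4 hold more than 1 core, and the 15 below hold at most 1.

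Other motifs were rare or near their share over all peaks. GC boxes (GGGCGG) were in 9 peaks (45.0% beside 57.0%) and CCAAT boxes in 6 (30.0% beside 23.5%). GATA matches (AGATAA or TGATAA) were in 1 peak (5% beside 8.33%) and NR5A matches (CAAGGTCA or CAAGGCCA) in 1 (5% beside 4.42%). Forkhead (TGTTTAC or TATTTAC), ETS (CCGGAAGT) and SOX (AACAATGG or AACAAAGG) matches were in 0 of 20, beside 3.24%, 4.66% and 1.53% of all peaks. The CTCF site was in 2 peaks (10.0% beside 1.35%), those of Col3a1 and the distal one of Col6a2, which were also the highest in fold. Both lay beyond 1 kb, where the share was 2 of 10 collagen peaks (20.0% beside 3.81% of all peaks beyond 1 kb). The median GC content of the collagen peaks was 63.8%, beside 66.3% over all peaks.

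Genes that make, sense or cut collagen, or inhibit its cutting, had a peak in shares that ranged more widely around the background. Of 28 collagen processing genes, which modify, fold, trim and cross-link the chains, 16 (57.1%) were nearest to a peak and 15 (53.6%) had 1 within 1 kb, beside 39.1% and 37.4% of all protein-coding genes. P4hb, a subunit of prolyl 4-hydroxylase, had a fold of 15.65 over its TSS, Loxl3, a cross-linking lysyl oxidase, 11.11 at 4444 bp, and Plod3, a lysyl hydroxylase, 10.68 at 154 bp. Of 10 collagen receptors, 4 (40%) were nearest to a peak. Itgb1, the beta subunit shared by the collagen-binding integrins, had a fold of 19.44 at 214 bp, and Mrc2, a receptor that takes up collagen, 15.12 at a peak 70294 bp from its TSS, beside a weaker one over the TSS. Of 11 cleavage genes, a list of metalloproteinases and their Timp inhibitors, 3 (27.3%) were nearest to a peak. Among them were the membrane metalloproteinase Mmp15 with 14.47 at 4988 bp and an inhibitor gene. The median over genes of the highest fold was 6.40 for the collagen chains with a peak, 5.85 for the processing genes and 6.66 for all protein-coding genes, so that the larger share of processing genes with a peak went with no higher fold.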

How the data were processed

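RUNX1 ChIP-seq was done on E14.5 ovaries in 2 ChIP and 2 input samples. Per the labels and the study's methods, the authors kept uniquely mapped, non-duplicate mm10 reads, merged the replicates, called peaks and set each to 300 bp. Tools named in the submitters' processing notes are HOMER 4.9, Bowtie 1.2, bedtools 2.24.0 and Picard 1.110. For its 10494 peaks the deposited list gives a position, a fold (a ratio to background) and a p-value (given as 0 for 7 peaks) as the authors' peak caller wrote them. Merging leaves no replicate error, and depth decides which weak peaks pass.

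Peaks were placed on 45756 curated RefSeq transcripts of 26180 genes (GRCm38, the same assembly as mm10) with Python 3.11.15 and numpy 2.4.6. The 4 peaks off assembled chromosomes were dropped. Each remaining peak went to the gene with the TSS nearest to its edge, ties kept. This assignment and the search for RUNX cores were checked on made-up peaks and sequences with known answers. Every member with a peak is named, the others by family. Beside them are named genes tied for a peak or nearest to one within a member, and up to 6 comparison genes with the strongest peak. Lamc1 and Lama3, the laminin genes with a peak, are named outside that rule. Deptor and the count of peaks with more than 1 core were added after the values were seen. The CTCF site was not among the planned motifs. The members, lists and motifs were chosen with earlier results of these data known. Motifs were searched as fixed letters on both strands, the CTCF site with alternative letters at some positions. Alternatives were other distances, transcript sets, links and thresholds.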

Additional observations from a re-analysis of the deposited data

How the results depend on the processing

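Of 26 alternatives, 16 left the value within the limits set for it and 10 moved it. These limits were wide, with a factor of 1.5 for counts. Thus 24 genes within 50 kb, beside 17 in the main setting, counted as unmoved. So did TGTGGT alone in 30.0% of collagen peaks, beside 45.0% for both forms. A fold of at least 8 left 5 genes nearest to a peak (Col3a1, Col6a2, Col6a6, Col8a2 and Col27a1). It left 1 gene with a peak within 1 kb, beside 12.6% of all protein-coding genes. Of the 5 peaks, 20.0% lay within 1 kb (beside 76.0% of all such peaks) and 80.0% held a RUNX core (beside 50.4%). A p-value under 1e-20 left 4 genes (without Col6a6), 1 of them with a peak within 1 kb (beside 14.9% of all protein-coding genes). Of the 4 peaks, 25% lay within 1 kb (beside 83.9% of all such peaks) and 75.0% held a core (beside 50.6%). Their median fold was 17.1, beside 9.72. By construction both leave few peaks, and over all protein-coding genes the share nearest to a peak fell to 13.8% and 15.1%. TGCGGT alone was in 15% of collagen peaks, beside 23.7% of all peaks. Predicted transcripts took away Col1a1 and Col14a1, leaving 15 genes, and also the peak of fold 66.95 from Col6a2, the distal peak from Col4a2 and the farther peak from Col26a1, each of which kept another peak. Linking within 10 kb, 50 kb or the gene body gave 13, 24 and 14. No paired analysis was possible because the reads of both replicates were merged before peaks were called, and for the same reason neither replicate could be left out. Read depth, which limits which weak peaks a caller can list, was not analysed here.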
